A study of Mus musculus with 8 samples.

Results

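Binding of CTCF was described at the cadherin superfamily outside the clustered protocadherin arrays. The genes were chosen by symbol from the protein-coding genes of a RefSeq table: names of the form Cdh, Cdhr, Pcdh, Celsr, Fat, Dchs, Dsg and Dsc followed by a number, which gave 58 of 21887 genes. They comprised 18 classical cadherins, 10 other cadherins (Cdh13, Cdh16, Cdh17, Cdh23, Cdh26 and the cadherin-related Cdhr genes), 12 non-clustered protocadherins, 9 giant cadherins (Celsr, Fat and Dchs) and 9 desmosomal cadherins. A CTCF region was assigned to a gene when its summit lay in the gene span or within 10 kb on either side, a stretch called the gene window below. The 58 windows covered 13.1 Mb and held 151 of the 33815 regions of the control list and 163 of the 36186 regions of the NMDA list.

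The material was dissociated cortex from Swiss-Webster mouse embryos taken at embryonic day 16, of wild-type genotype, grown as primary neurons to day 13 in vitro. Controls were labelled as having no treatment, and the other cultures received NMDA, which activates the glutamate receptors named after it, at 50 µM for 10 min with 50 min of recovery in medium free of it. Each condition had 2 chromatin immunoprecipitation replicates with an anti-CTCF antibody and 2 inputs, 8 samples in all, and the inputs were not analysed here. The authors built 1 region list per condition over both replicates, so that no difference between conditions could be tested against the spread between replicates. The culture protocol given for every sample also names etoposide, a topoisomerase inhibitor, but no sample is labelled as having received it. The lists hold no read counts, so the depth of the libraries is unknown, and the labelled cell type could not be checked because no expression was measured. In bulk chromatin, binding in fewer cells and weaker binding in each cell cannot be told apart.

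Cadherins are calcium-dependent adhesion proteins that join neighbouring cells through extracellular repeats, and in cortex they take part in migration, dendrite growth and synapse formation. Classical cadherins bind catenins, which link them to actin, and desmosomal cadherins tie epithelial cells to intermediate filaments through plakoglobin and plakophilins. CTCF, a DNA-binding protein with zinc fingers, holds chromatin loops together with cohesin, and among adhesion genes it is best known for its role in promoter choice at the clustered protocadherins.

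A few promoters with a CTCF region over them are shown first, because they represent the ways in which a cadherin start site was met. At Celsr2 a region covered the start site in both conditions. At an internal start of Pcdh15 the region covered a match to the CTCF core. At Cdh20 the region was listed after NMDA alone. Each line gives the 250 bases before the start site, 5′ to 3′, from the RefSeq promoter table of GRCm38.p6, and capitals mark a match to the motif searched, a CTCF core of CCA, any 2 bases, AG, any 2 bases and GGC, on either strand.
Celsr2, chr3:108415580-108415829, minus strand: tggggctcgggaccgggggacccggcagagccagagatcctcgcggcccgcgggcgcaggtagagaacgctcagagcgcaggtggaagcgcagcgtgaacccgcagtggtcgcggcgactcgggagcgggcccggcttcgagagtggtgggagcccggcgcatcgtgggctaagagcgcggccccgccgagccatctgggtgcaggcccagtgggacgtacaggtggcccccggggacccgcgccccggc
Pcdh15 internal start, chr10:73821617-73821866, plus strand: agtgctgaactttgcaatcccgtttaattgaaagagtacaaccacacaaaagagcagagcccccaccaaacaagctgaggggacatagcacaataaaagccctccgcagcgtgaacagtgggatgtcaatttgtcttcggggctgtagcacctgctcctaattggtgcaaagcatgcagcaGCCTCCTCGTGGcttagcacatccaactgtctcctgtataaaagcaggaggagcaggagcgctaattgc
Cdh20, chr1:104768270-104768519, plus strand: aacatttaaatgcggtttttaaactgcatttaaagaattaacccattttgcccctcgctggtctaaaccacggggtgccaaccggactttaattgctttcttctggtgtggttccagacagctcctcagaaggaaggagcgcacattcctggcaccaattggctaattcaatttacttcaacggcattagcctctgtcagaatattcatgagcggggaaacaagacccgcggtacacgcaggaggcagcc

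The Celsr2 region (chr3:108415005-108416300) had its summit 4 bp before the start site in the NMDA list and 139 bp after it in the control list. Its signal, the authors' −log10 p, was 68.9 in the NMDA list and 107.8 in the control list. Since signals of the 2 lists are on different scales (list medians 90.9 for NMDA and 165.5 for control), each was ranked within its own list, and the percentile is the share of that list's regions with a weaker signal. The Celsr2 region stood at percentile 41.6 in the NMDA list and 34.9 in the control list. The Pcdh15 region (chr10:73821440-73822491) had its summit 57 bp after the internal start, with a signal of 62.8 (percentile 38.6) after NMDA and 117.3 (percentile 37.8) in control. The match printed in capitals reads the motif on the strand opposite to the gene. The Cdh20 region (chr1:104768508-104769789) had its summit 722 bp after the start and a signal of 26.1, at percentile 9.49 of the NMDA list. Its values in the first and second per-replicate columns of the NMDA list were 15.2 and 10.9.

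The promoter table held 37 entries for 34 of the 58 genes. A region of either list overlapped 15 of the 37 promoters of 300 bp (40.5%), against 23.8% of all 32851 entries. These shares were not matched for gene length, and 20 of the 34 genes had windows of at least 100 kb. Of all genes with such windows, 36.8% had an NMDA summit within 1 kb of the 5′ end of the span. The share was 22.8% for genes with shorter windows. Entries are not independent: Pcdh9 is counted more than once, with nearly coincident entries under the same region. The promoters of Cdh8 and Dchs2 were overlapped in the control list alone. Both of these control regions overlapped an NMDA region that did not reach the promoter. The promoter of Cdh20 was overlapped in the NMDA list alone, by a region without a counterpart in the control list. The motif was present in 2 of the 37 (5.41%), the Pcdh15 entry shown and Cdhr4, against 2.43% of all entries. The Cdhr4 promoter had no region over it. Among entries under a region the motif was present in 1 of 15 at the members (6.67%) and in 5.17% of all. A match is a description of letters, and a window without one says nothing of CTCF at that gene.

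Most cadherin genes carried CTCF, but fewer regions per length than the average gene. At least 1 region lay in the window of 45 of the 58 genes (77.6%), against 69.4% of all protein-coding genes. By window length the shares of cadherins and of all genes were 64.5% and 65.5% under 100 kb. They were 87.5% and 91.9% at 100 to 300 kb, and 100% and 96.6% over 300 kb. The density in the merged windows was 1.25 regions per 100 kb in the NMDA list (95% exact Poisson interval 1.06 to 1.45) and 1.16 (0.98 to 1.36) in the control list. Over all protein-coding genes the NMDA density was 2.12. Cadherin windows were long, with 11 of 58 over 300 kb against 618 of 21887, and density was lower in longer windows. In windows over 300 kb it was 0.83 (0.65 to 1.04) for the cadherins and 0.96 (0.93 to 0.99) for all genes. In windows of 100 to 300 kb the values were 1.68 (1.23 to 2.25) and 1.92, and under 100 kb 2.81 (2.05 to 3.75) and 3.03. The intervals for the cadherins cover counting error only, and each contains the value for all genes of that length. Taken per gene, the median over 300 kb was 0.48 for the 11 cadherins and 0.91 for all genes, whose lower quartile was 0.515. Of the 73 NMDA regions in these cadherin windows, Cdh13, Cdh4 and Cdh23 held 17, 14 and 11. The medians at 100 to 300 kb were 1.67 and 1.76, and under 100 kb 2.56 and 2.81. The plot of density against window length shows the genes of each subfamily against these classes.

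**Figure D1:**
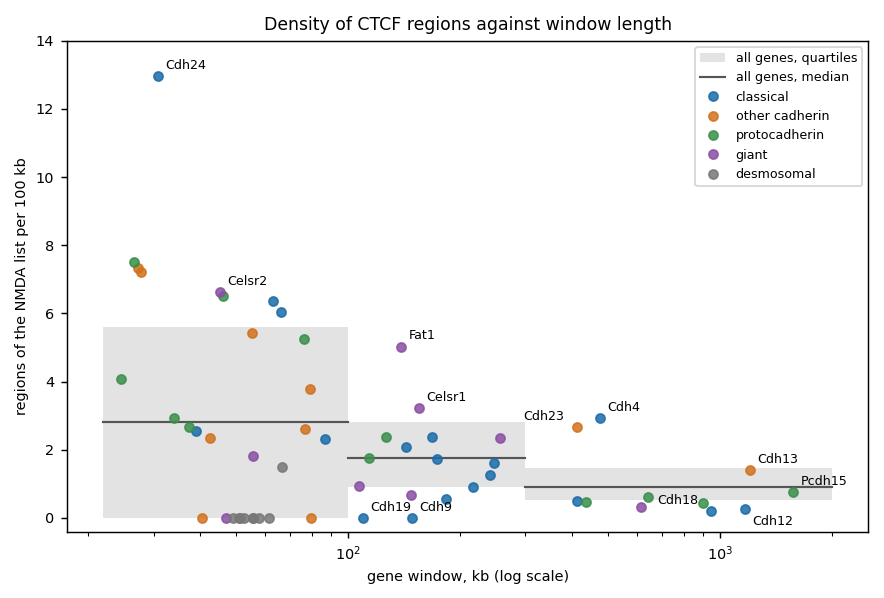
Regions of the NMDA list per 100 kb (vertical axis) against the length of the gene window in kb (log scale), 1 point per cadherin gene, coloured by subfamily; the grey boxes and lines are the quartiles and median of all protein-coding genes in 3 length classes. Cdh4 (2.94) and Cdh23 (2.66) lie above the box of windows over 300 kb. Cdh12 (0.26), Cdh18 (0.21), Fat3, Pcdh9, Pcdh7 and Cdh8 lie below it.

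The density over merged windows was compared among the subfamilies. In the NMDA list the density per 100 kb was 2.00 (1.44 to 2.72) for the other cadherins, 1.66 (1.09 to 2.43) for the giant cadherins, 1.14 (0.86 to 1.48) for the classical cadherins, 0.97 (0.69 to 1.32) for the protocadherins and 0.20 (0.0051 to 1.12) for the desmosomal cadherins. The control list gave 1.81, 1.79, 1.02, 0.87 and 0.20 in the same order. The intervals of neighbours in this order overlap, while in the NMDA list that of the other cadherins lies above those of the protocadherins and desmosomal cadherins. The clustered protocadherins, which lie in tandem arrays, had 5.12 (3.61 to 7.06) per 100 kb in the NMDA list. Taken per gene, the median density was 2.63 for the other cadherins, 2.53 for the protocadherins, 1.81 for the giant, 1.67 for the classical and 0 for the desmosomal cadherins, so that the place of the protocadherins depends on weighting by length. Windows of different length contribute to these figures: the median window was 139.2 kb in the giant and 66.0 kb in the other cadherins.

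**Figure D2:**
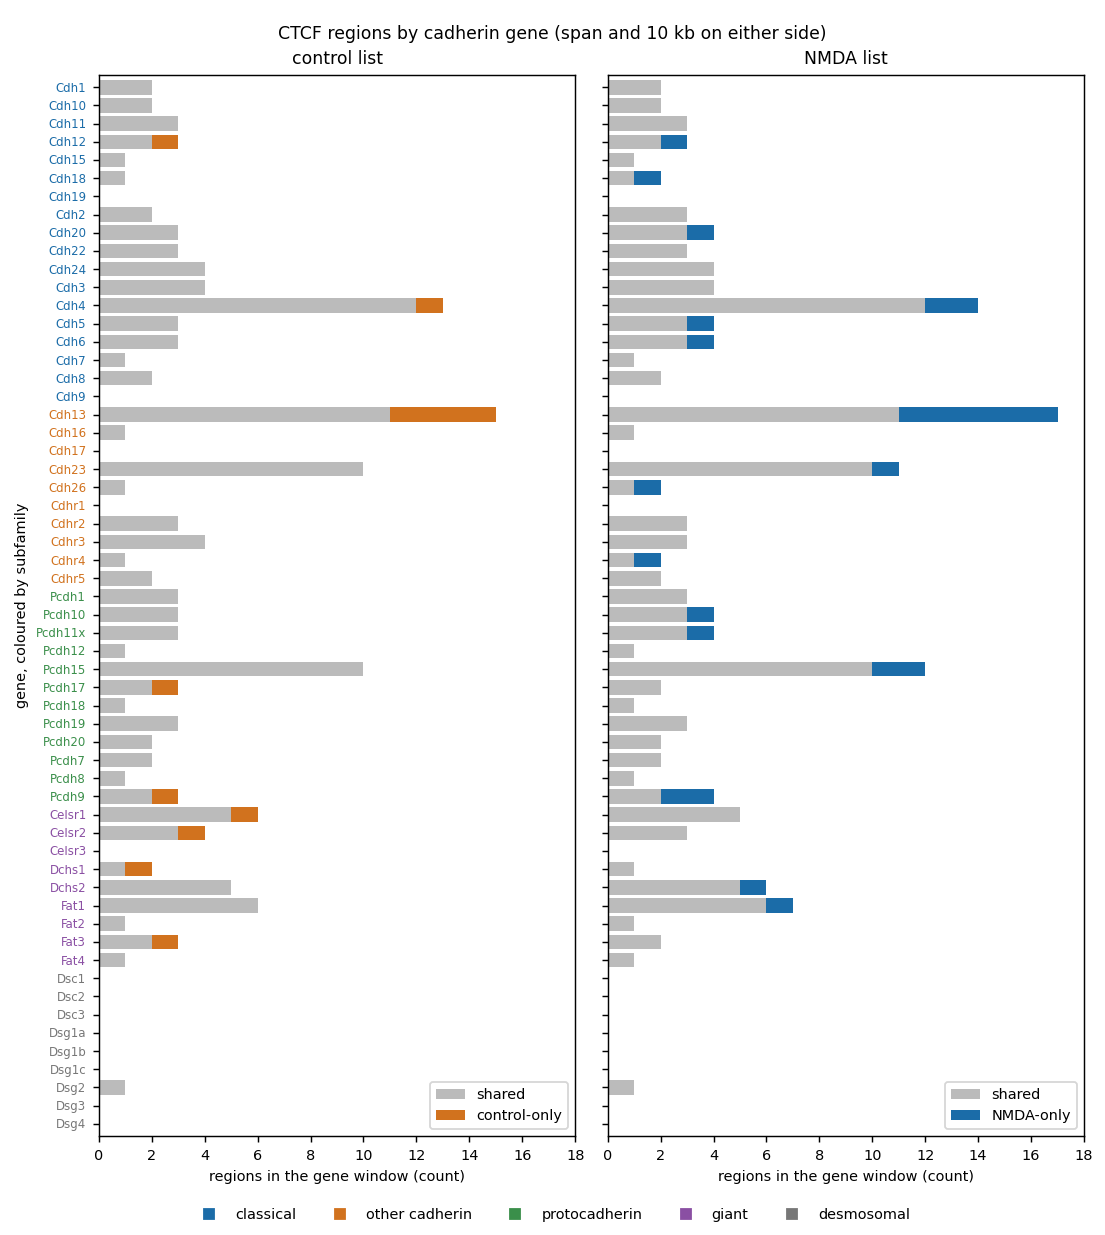
Number of CTCF regions in the window of each of the 58 cadherin genes (horizontal axis, count), in the control list (left) and the NMDA list (right); grey bars are regions shared by both lists and coloured ends are regions of 1 list alone. Cdh13 (17 NMDA regions), Cdh4 (14), Pcdh15 (12) and Cdh23 (11) have the longest bars, and 8 of the 9 desmosomal genes have none.

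Regions were called shared when at least 1 bp of them was covered by the other list. Of the 163 NMDA regions at cadherin genes 139 were shared and 24 were found after NMDA alone, which is 14.7% (95% Wilson interval 10.1 to 21.0). Across the whole NMDA list 15.5% were NMDA-only. Of the 151 control regions 12 were control-only, 7.95% (4.604 to 13.4), against 9.22% of the whole control list. Taking the list-wide shares at the same deciles of signal gave 15.7% and 8.19%. Under a reciprocal overlap of 50% the counts were 32 NMDA-only (19.6%, against 20.4% of the whole list) and 20 control-only regions (13.3%, against 14.8%). An NMDA-only region lay at 16 of the 58 genes (27.6%, against 20.6% of all genes). A control-only region lay at 9 (15.5%, against 12.8%). These shares were not matched for window length. By length, NMDA-only regions lay at 4 of 31 cadherins under 100 kb, against 17.5% of all genes. They lay at 4 of 16 at 100 to 300 kb (against 36.4%) and at 8 of 11 over 300 kb (50.2%). In the same order, control-only regions lay at 2 of 31 (against 10.2%), 2 of 16 (25.9%) and 5 of 11 (39.3%). Both shares were thus lower than in all genes up to 300 kb and higher over 300 kb. By subfamily the NMDA-only regions were 9 of 41 in the other cadherins, 7 of 56 in the classical, 6 of 39 in the protocadherin and 2 of 26 in the giant group. The giant cadherins were the only group with more control-only (4) than NMDA-only regions, a difference of few counts that was not tested.

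Regions of 1 list alone were weak. The median percentile was 16.2 for the 24 NMDA-only regions (range 0.49 to 56.4) and 54.5 for the shared regions of the NMDA list. For the 12 control-only regions it was 15.5 (0.91 to 39.8), against 53.0 for shared regions of the control list. The NMDA-only regions had median −log10 p of 13.04 in the first and 17.95 in the second per-replicate column, and shared regions 37.0 and 64.9. All regions together stood at a median percentile of 46.1 in the NMDA list and 47.9 in the control list, next to 49.2 and 49.5 for regions in the windows of all genes.

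Cdh13 held the most regions of any cadherin and the most that appeared in 1 list alone. It encodes T-cadherin, which is attached to the membrane by a lipid anchor and lacks the transmembrane and cytoplasmic parts of its relatives. Its span (chr8:118140017-119324929) gave a window of 1205 kb with 15 control regions and 17 NMDA regions. Of these, 11 in each list were shared, 4 were control-only and 6 NMDA-only. The NMDA-only share of 35.3% (17.3 to 58.7) compares with 26.0% for list regions at the same signal deciles, and the control-only share of 26.7% (10.9 to 52.0) with 12.4%. Both intervals contain the matched value. Among the 59 protein-coding genes with windows over 1 Mb the median was 7 NMDA regions and 2 list-only regions. As many NMDA regions as in Cdh13 were found in 4 of the 59, itself included, and as many list-only regions in 1, which was Cdh13. Its density of 1.41 per 100 kb (0.82 to 2.26) was higher than that of 72.8% of the 618 genes with windows over 300 kb.

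The strongest Cdh13 region (chr8:118849877-118851180) lay 710.6 kb from the lower-coordinate end of the span. Its signal was 449.8 after NMDA, 218.5 and 231.3 in the per-replicate columns, and 541.3 in control, at percentiles 95.2 and 91.5. A second strong region (chr8:118274231-118275738) had a signal of 260.4 after NMDA and 445.4 in control, at percentiles 83.7 and 87.1. The strong Cdh13 regions were therefore present in both lists at close ranks. The NMDA-only regions reached at most percentile 26.5 (chr8:118168643-118170047, signal 42.9) and the control-only regions at most 25.5 (chr8:119311116-119311953, signal 82.1). Towards the higher-coordinate end, an NMDA-only and a control-only region lay 4725 bp apart.

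Inside Cdh13 the NMDA list had a stretch of 515.4 kb without a region. It held 2 control-only regions, at chr8:118443189-118443950 (signal 60.7, percentile 15.3) and chr8:118744901-118745372 (35.7, percentile 0.91). Every Cdh13 region lay in the body of the gene: none had its summit within 1 kb of an end or in the flanks. With a stricter score of at least 830 in both lists, 2 control-only and 3 NMDA-only regions were left. Without Cdh13, the density of the other cadherins was 2.85 per 100 kb in the NMDA list.

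**Figure D3:**
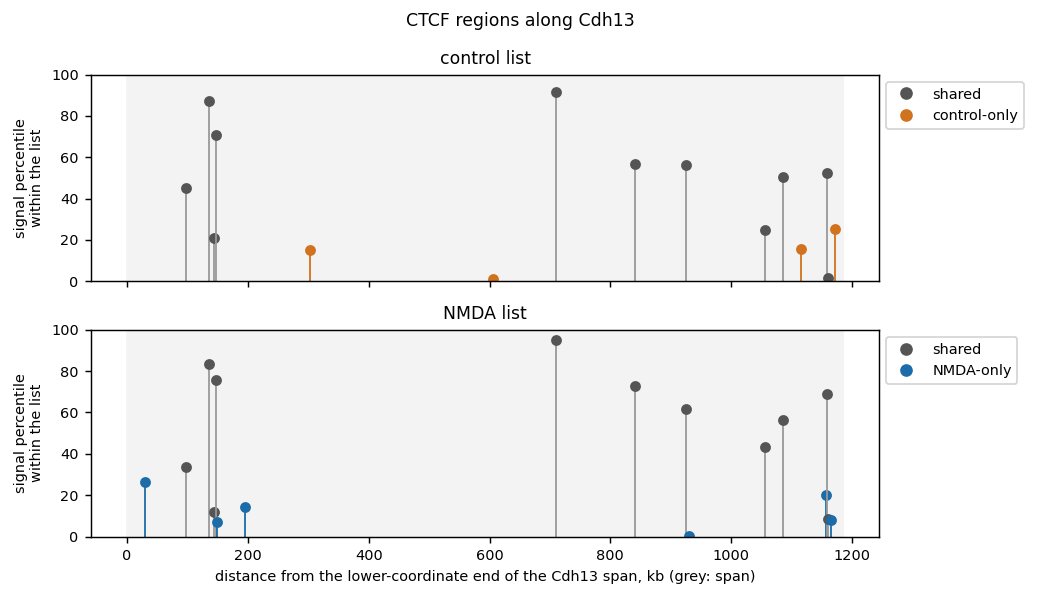
CTCF regions along Cdh13: distance of each summit from the lower-coordinate end of the span in kb (horizontal axis) and signal percentile within the list (vertical axis, 0 to 100), for the control list (top) and the NMDA list (bottom). Grey points are shared regions, coloured points the 4 control-only and 6 NMDA-only ones, which stay at or below percentile 26.5, while the strongest shared region reaches 95.2.

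Among the classical cadherins the first question is which of the genes that build adherens junctions carried CTCF. The type I genes (Cdh1, Cdh2, Cdh3, Cdh4 and Cdh15) had 2.64 NMDA regions per 100 kb (1.69 to 3.93), and the 13 type II genes 0.80 (0.55 to 1.13). Their intervals do not overlap, but the median window was 86.9 kb in type I and 173.4 kb in type II. Cdh4 alone held 14 of the 24 type I regions.

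Cdh4 encodes R-cadherin, a retinal and brain cadherin. Its window of 477.0 kb held 13 control and 14 NMDA regions, 2.94 per 100 kb (1.61 to 4.93), a density higher than that of 96.0% of genes with windows over 300 kb. Its 3 strongest NMDA regions followed each other towards the higher-coordinate end, from chr2:179872178-179873618 to chr2:179876673-179878915. Their signals were 208.2, 236.9 and 399.4 in the NMDA list and 330.0, 283.3 and 437.1 in control, at NMDA percentiles 76.9, 81.0 and 93.3. NMDA-only regions in the body had signals of 38.04 and 33.8, and 1 control-only region in the flank had 54.3.

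Cdh24, a type II cadherin, had the highest density among members, 12.97 per 100 kb (3.53 to 33.2), in a window of only 30.8 kb. Its 4 NMDA regions had signals of 441.4, 407.2, 248.0 and 126.5, and all were shared. The strongest (chr14:54640914-54643022) lay within 1 kb of the 5′ end and stood at percentile 94.9 after NMDA and 94.4 in control. The regions with 407.2 and 126.5 lay in the flank, inside the neighbouring gene Acin1, so they cannot be assigned to Cdh24 alone. Cdh22 resembled it in having a strong region at its 5′ end (chr2:165232825-165235757, signal 367.0 after NMDA and 630.3 in control, percentiles 91.8 and 93.9).

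Regions at the ends of Cdh20 and Cdh5 were listed after NMDA alone. An NMDA-only region within 1 kb of a gene end was found at these 2 of the 58 genes, where 4.28% of all genes have one, and a control-only region at none, where 3.53% do. Cdh20 is a type II cadherin. Its region (chr1:104768508-104769789) overlapped only the end of the promoter sequence printed above, and its summit lay 722 bp after the start. The region lay 174841 bp from the nearest control region. At Cdh5, the cadherin of endothelial junctions, the region (chr8:104144544-104145482) had a signal of 21.0, at percentile 2.64, with 10.6 and 10.5 in the per-replicate columns. It lay 145 bp from a control region, whose shared counterpart in the NMDA list had a signal of 230.8. Cdh5 also had 2 shared regions on the other side of its span, with NMDA signals of 213.8 and 87.4.

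Several classical cadherins known for expression in the nervous system were nearly empty over long stretches. Cdh12 had 3 control and 3 NMDA regions in 1170 kb, and Cdh18 had 1 and 2 in 948.6 kb. In Cdh12 the signals after NMDA were 154.2, 25.04 and 24.8, and an NMDA-only and a control-only region lay 5267 bp apart. In Cdh18 they were 26.7 and 26.0, with 73.9 in control, and 932.4 kb of its window held no region of either list. Only 11.0% and 7.93% of genes with windows over 300 kb had a lower density than Cdh12 and Cdh18. Cdh8 had 2 regions in 413.2 kb, with NMDA signals of 84.7 and 24.8, and 23.3% of these genes had a lower density. Cdh12, Cdh18 and Cdh8 were named after their values were seen. Cdh4, described above, went the other way, with a density higher than that of 96.0% of the same length class.

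Cdh9 and Cdh19, type II cadherins, were the 2 members with windows of at least 100 kb and no region. Cdh9 lay in a stretch of 2009 kb without an NMDA region and 1861 kb without a control region. For Cdh19 the stretch was 1675 kb in both lists. Among all genes with windows of 100 to 300 kb, 8.13% had no region. The remaining classical genes had between 1 and 4 NMDA regions each. Cdh3, which encodes P-cadherin, had 4 in each list (NMDA signals 117.9, 112.3, 64.6 and 38.4). Cdh6 had 3 control and 4 NMDA regions, of which the NMDA-only one (chr15:13133390-13134524) had a signal of 54.9 at percentile 34.3, with 29.0 and 25.9 in the per-replicate columns. Cdh11 had 3 shared regions with NMDA signals of 256.3, 171.1 and 70.3.

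Among the other cadherins Cdh23 came next after Cdh13. It encodes a long cadherin that forms the upper part of the tip link of hair cells, where its partner is the protein of Pcdh15. Its window of 413.8 kb held 10 control and 11 NMDA regions, and its density of 2.66 per 100 kb (1.33 to 4.76) exceeded that of 94.5% of genes with windows over 300 kb. The strongest region (chr10:60406962-60409207) had a signal of 615.6 after NMDA, 239.8 and 375.8 in the per-replicate columns, and 769.9 in control, at percentiles 98.1 and 96.0. It and 4 other NMDA regions also lay inside Vsir, an immune checkpoint gene nested in the span of Cdh23. A region at the 5′ end of Cdh23 (chr10:60695921-60698187) had 348.8 after NMDA and 494.7 in control. The only NMDA-only region had 22.1.

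The smaller genes of this group had from 0 to 4 regions in either list. Cdh16, the kidney cadherin, had 1 region (chr8:104602134-104603990) with 488.2 after NMDA and 670.4 in control, at percentiles 96.1 and 94.6. Cdhr3 had a flank region (chr12:33026476-33029194) with 432.7 and 384.6, at percentiles 94.6 and 82.5, and 2 weaker regions in its body. Cdhr2 had 345.0 after NMDA and 485.3 in control at its strongest region (chr13:54715633-54717916). Cdh26 had 1 shared region (205.5 after NMDA) and 1 NMDA-only region (41.7). Cdh17, an intestinal cadherin, and Cdhr1, the photoreceptor cadherin, had none.

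Each of the 12 protocadherins had at least 1 region, against 69.4% of all genes (65.5% with windows under 100 kb, 96.6% over 300 kb). Their density depended on length: 4 of them have windows over 300 kb (Pcdh7, Pcdh9, Pcdh11x and Pcdh15), with 0.44 to 0.76 NMDA regions per 100 kb. The other genes reached 7.50 (Pcdh20), 6.503 (Pcdh1), 5.25 (Pcdh10) and 4.08 (Pcdh8). The median over the 12 genes was 2.53, next to 2.43 over all genes. Pcdh7 held the strongest region of all 58 genes. This region (chr5:57713464-57720751) was 7.29 kb wide and had a signal of 993.8 after NMDA, 350.8 and 643.0 in the per-replicate columns, and 1499 in control. It ranked 89th from the top of the NMDA list and 168th in control, at percentiles 99.8 and 99.5. Its summit lay 3.57 kb inside the 5′ end. The window of Pcdh7, 437.1 kb long, held a single further region (54.6 after NMDA, 121.8 in control).

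Pcdh10, a protocadherin with a known part in synapse elimination, had 3 control and 4 NMDA regions in 76.2 kb. Upstream of the span a region (chr3:45375034-45376620) had 463.0 after NMDA and 826.2 in control, at percentiles 95.5 and 96.6. Inside the gene a region (chr3:45379973-45381847) had 138.8 after NMDA and 489.4 in control. Its percentile was 63.5 against 89.4, lower by 25.9 points after NMDA. The next region of the gene (chr3:45383404-45384438), with 49.0 and 150.6, was lower by 15.9 points, and the upstream region by 1.05 points. The fourth region was NMDA-only (54.0, percentile 33.9).

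Pcdh15, the partner of Cdh23 in the tip link, had 10 control and 12 NMDA regions in a window of 1574 kb, the longest of the 58. Its density of 0.76 per 100 kb was higher than that of 41.9% of genes over 300 kb. The strongest region (chr10:73097687-73100405) lay 1.95 kb inside the 5′ end, with 419.1 after NMDA and 682.1 in control, at percentiles 94.1 and 94.8. The NMDA-only regions had 48.1 each, at chr10:73400137-73400979 and chr10:74621749-74622604.

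Pcdh9 and Pcdh11x had few regions for their length. Pcdh9 had 3 control and 4 NMDA regions in 899.1 kb, of which 2 were NMDA-only and 1 control-only. Its flank region (chr14:93898133-93899564) was the strongest NMDA-only region at any cadherin gene. The signal was 111.2 at percentile 56.4, and the per-replicate columns differed, with 21.4 in the first and 89.8 in the second. The control-only region of Pcdh9 (chr14:93317164-93317867) had 113.6, at percentile 36.7. Pcdh11x had 3 and 4 regions in 640.4 kb, and its NMDA-only region (27.8) lay 325184 bp from the nearest control region. The X-linked Pcdh19, whose human counterpart is an epilepsy gene, had 3 shared regions with NMDA signals of 121.5, 66.9 and 21.3. Pcdh17 had 2 shared regions (168.5 and 134.8) and the strongest control-only region of the set (chr14:84440768-84441458, 124.8, percentile 39.8). Pcdh1 had a region at its end with 496.1 after NMDA and 581.6 in control.

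The giant cadherins include the planar cell polarity receptors of the Celsr group and the Fat and Dchs proteins, which pair as receptor and ligand between cells. Celsr2 combined the start-site region described above with much stronger regions elsewhere. One in the body (chr3:108401035-108402876) had 814.9 after NMDA and 1348 in control, at percentiles 99.4 and 99.2. One in the flank beyond the 3′ end (chr3:108388426-108390319) had 786.5 and 1171, at percentiles 99.2 and 98.7. The start-site region of Celsr2 was thus by far the weakest of its 3 NMDA regions. Celsr1 had 6 control and 5 NMDA regions, with NMDA signals from 29.4 to 300.3. Celsr3 had none in a window of 47.0 kb, and the nearest NMDA regions lay 66.0 and 147.9 kb from its span.

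Fat1, a giant cadherin linked to the Hippo growth pathway, had 6 control and 7 NMDA regions in 139.2 kb. Its density of 5.03 per 100 kb (2.02 to 10.4) exceeded that of 95.04% of the 2521 genes with windows of 100 to 300 kb. The strongest region (chr8:44934681-44936578) had 306.4 after NMDA and 764.6 in control, at percentiles 88.0 and 95.9, and the NMDA-only region had 36.2. Fat4 had 1 region (chr3:38882281-38889226), 6.95 kb wide, with 538.9 after NMDA and 989.1 in control, at percentiles 97.1 and 97.8. Fat3 had 3 control and 2 NMDA regions in 612.5 kb, of which the strongest (chr9:16499773-16502665) had 231.3 after NMDA and 310.7 in control. Dchs2 had 5 and 6 regions, with NMDA signals from 25.2 to 216.2.

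The wide regions of Pcdh7 and Fat4 were unusual in the data as a whole. Regions over 6 kb numbered 13 in the NMDA list and 2 in the control list, and the 2 of the control list were those of Pcdh7 and Fat4. Both had their summit about 3.6 kb inside the 5′ end of the gene span. The regions themselves began before that end and overlapped the promoter in both lists. Regions over 2.5 kb made up 9 of the 163 NMDA regions at cadherin genes, against 4.78% of the whole list, and 14 of the 151 control regions, against 3.08%.

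A position 1 to 5 kb inside the 5′ end of the gene span was common among the members and recurred across subfamilies. This distance was chosen after the values were seen. Strand was known for 34 members from their promoter entries, and 18 of them (52.9%) had an NMDA region with its summit there, against 12.8% of 17492 protein-coding genes with known strand. The control list gave 17 of 34 (50.0%), against 12.0%. Among genes with windows of at least 100 kb, the NMDA list gave 13 of 20 members (65.0%) and 16.4% of all genes. Within 1 kb of the 5′ end the order was the other way, with 5 of 34 members (14.7%) against 24.8%. From 5 to 1 kb before it the shares were 17.7% and 11.8%. These distances run from the outer end of the span, and a start site in the promoter table can lie inside it. The NMDA summit counted lay 472 bp after that start site in Cdh6, 537 bp after it in Fat3 and 285 bp before it in Pcdh9. In Pcdh7 and Fat4 it lay 1630 and 1371 bp after it. The shares are therefore no measure of distance from the start site.

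The 18 genes were Cdh6, Cdh7, Cdh8, Cdh10, Cdh24, Fat1, Fat3, Fat4, Dchs2, Pcdh7, Pcdh8, Pcdh9, Pcdh10, Pcdh15, Pcdh17, Pcdh18, Pcdh19 and Pcdh20. All 9 protocadherins of known strand were thus included, while none of the 7 other cadherins was. Many non-clustered protocadherins carry one large first exon that encodes the extracellular repeats. Exons were not used here, so whether these regions lie in it was not tested. The regions ranged from percentile 3.13 (Pcdh19, signal 21.3) to 99.8 (Pcdh7, 993.8), and all were shared. In Pcdh8 the region (chr14:79767908-79771991) had 246.5 after NMDA and 548.7 in control, and in Pcdh18 (chr3:49755584-49756775) 72.3 and 60.9. In Cdh10 (chr15:18821074-18822046) it had 227.3 and 350.3, and in Cdh7 (chr1:109985433-109986050) 104.9 and 149.1. For Fat3 the control summit lay 0.53 kb inside the end, so that gene counted in the NMDA list alone.

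**Figure D4:**
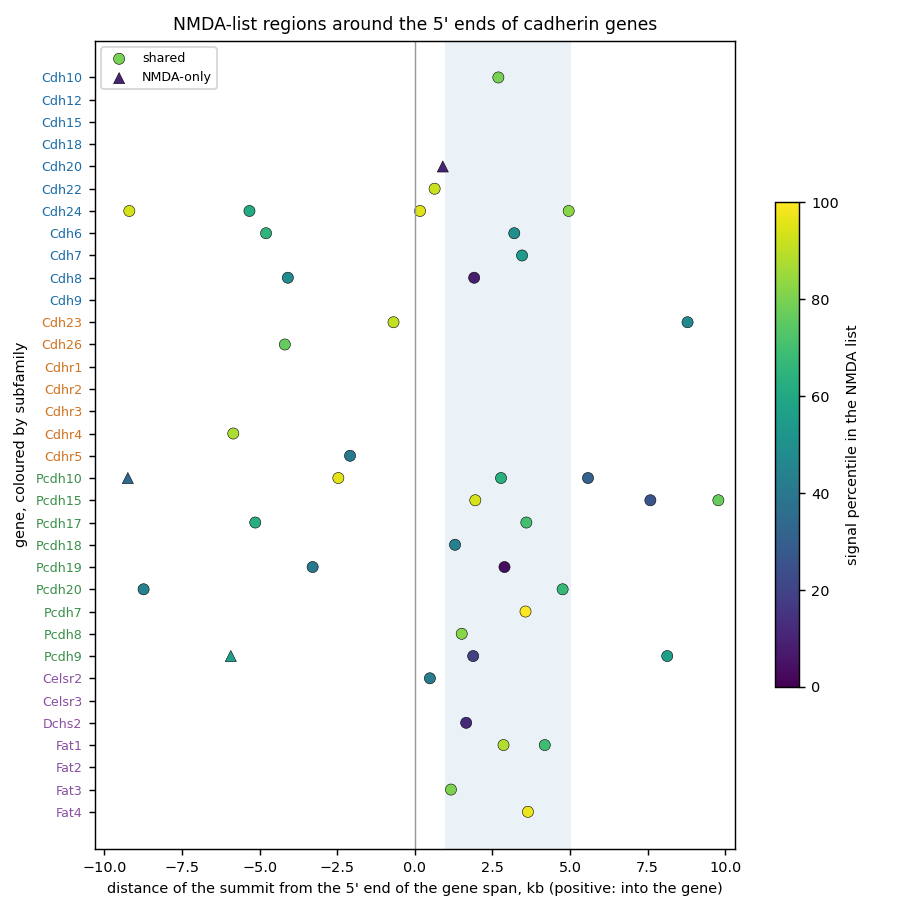
Distance of NMDA-list summits from the 5′ end of the gene span in kb (horizontal axis, positive into the gene) for the 34 cadherin genes of known strand, coloured by signal percentile; circles are shared and triangles NMDA-only regions, and the shaded band runs from 1 to 5 kb. In the band 18 genes have a summit, among them all 9 protocadherins, and the region nearest to the end of Cdh20 is a triangle outside it.

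The desmosomal cadherins were almost free of CTCF. They lie together on chromosome 18, and 8 of the 9 genes (Dsc1, Dsc2, Dsc3, Dsg1a, Dsg1b, Dsg1c, Dsg3 and Dsg4) had no region in either list. These 8 shared a single stretch without a region, 627.4 kb in the NMDA list and 628.2 kb in the control list, so they do not count as 8 separate cases. The stretch ended inside Dsg2, the desmoglein found in most desmosome-bearing tissues, at a shared region (chr18:20566783-20567207). Its signal was 55.0 after NMDA, 14.3 and 40.7 in the per-replicate columns, and 104.6 in control, at percentiles 34.4 and 33.8. In windows under 100 kb, 34.5% of all genes had no region.

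Most shared regions stood at close ranks in both lists. The median difference in percentile, NMDA minus control, was 2.10 points at cadherin genes (quartiles −3.56 and 8.09; 139 regions) and 2.25 points over all 30570 shared regions. A region stood at least 25 points higher after NMDA in 3 of 139 cases, against 1.8% of all shared regions, and at least 25 points lower in 4, against 1.6%. With 1 list per condition, these differences have no replicate check.

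The regions lower after NMDA were led by the end of Cdh2, which encodes N-cadherin, the main classical cadherin of neurons. The control list had 1 region there of 3.71 kb (chr18:16806659-16810364, signal 194.5, percentile 56.4). The NMDA list had 2 regions over the same stretch, with signals of 48.1 (27.6 and 20.6 in the per-replicate columns) and 27.6 (16.3 and 11.3). They stood 26.3 and 45.3 points lower than the control region, so the single control region enters both differences. In Cdh20 a body region (chr1:104978946-104979876) had 25.6 after NMDA and 150.4 in control, 37.8 points lower. The Pcdh10 region above was 25.9 points lower, and a flank region of Cdhr5 inside Sct was 22.5 points lower.

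Among those higher after NMDA, the region in Pcdh18 stood 27.6 points higher, at percentile 43.0 against 15.4. A flank region of Fat1 (chr8:45056847-45057520) had 47.9 after NMDA and 41.3 in control, 26.1 points higher. A flank region of Pcdh11x (chrX:120285337-120286335) was 26.0 points higher, with 11.1 in the first and 58.3 in the second per-replicate column. Regions in Cdh3 and Cdh23 were 24.9 and 24.7 points higher. The flank region of Cdhr3 in the NMDA list, at percentile 94.6, covers 2 control regions. It stood 12.0 points above the stronger of them, which is the one counted, and 48.8 points above the weaker (chr12:33028055-33029057, percentile 45.7). In the first column the whole NMDA list had a median of 32.1 and in the second 56.1, and at cadherin genes 31.3 and 51.8. The second column was thus the higher one at most regions of both.

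**Figure D5:**
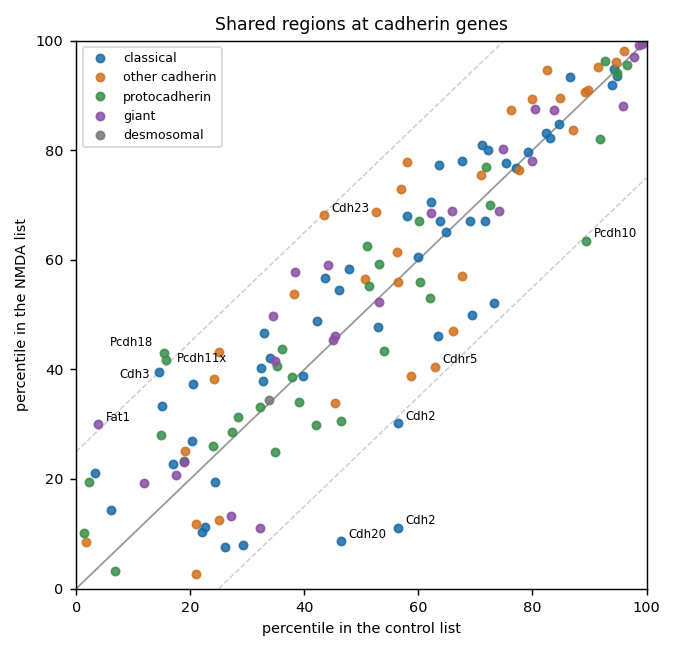
Signal percentile of each shared region at a cadherin gene in the control list (horizontal axis) and the NMDA list (vertical axis), coloured by subfamily; the solid line marks equal percentiles and the dashed lines a difference of 25 points. Labels give the genes of the 5 regions farthest above and the 5 farthest below the line, among them Cdh2 with 2 regions at control percentile 56.4.

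Partner genes of the cadherins (catenins, plakophilins, actin linkers, desmoplakin and Fjx1, the kinase that acts on Fat and Dchs proteins) were counted from a list of 17. Of these, 15 had a region (69.4% of all genes do), 7 an NMDA-only region (20.6%) and 3 a control-only region (12.8%). These shares were not matched for length: the median window was 79.4 kb for the partners and 37.2 kb for all genes. The windows of Ctnna2, Ctnna3 and Ctnnd2 were 1118, 1594 and 876.8 kb long. Ctnnal1, which encodes a catenin-like protein, had 3 shared and 3 NMDA-only regions in the NMDA list. The exceptions without a region were Arvcf, a p120 relative, and Pkp2, a plakophilin. The alpha-catenin genes of neurons and heart, Ctnna2 and Ctnna3, had 9 and 13 NMDA regions, or 0.80 and 0.82 per 100 kb. Ctnnd2, which encodes the neuronal delta-catenin, had 9 control regions, of which 2 were control-only, and 7 NMDA regions. Ctnnb1, which encodes beta-catenin, had 1 shared region. Jup, which encodes plakoglobin, had 4 in each list.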

How the data were processed

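Each condition had 2 CTCF ChIP-seq replicates and their inputs. The tools named by the submitters' processing notes are MACS2, BWA, SAMtools, Trimmomatic and FastQC, with builds mm10 and GRCm38.p6. Tool versions were not given in the sources used here. The authors deposited 1 list per condition made by the irreproducible discovery rate procedure, which keeps regions ranking alike in both replicates. The score that the authors deposited ran from 540 to 1000. The deposited −log10 p of each region was the signal; in the NMDA list it matched 2 per-replicate columns added together in 36186 of 36186 regions (tolerance 0.001). Which column is which replicate is not stated. The control list lacks these columns.

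Regions off the assembled chromosomes (5 control, 7 NMDA) were dropped. Gene spans came from RefSeq's GRCm38.p6 table, the same assembly as mm10, and strand from the promoter table. Overlaps, percentiles (ranks within a list), exact Poisson intervals for densities and Wilson intervals for shares (95%) were computed with Python 3.11.15, pandas 2.3.3, numpy 2.4.6 and scipy 1.17.1, and figures with matplotlib 3.10.9. The steps were tested on simulated data. Members and lists were chosen with earlier results of these data known. Genes were named by a rule: Cdh13; in each subfamily up to 5 with most NMDA regions, the 2 densest among windows of at least 100 kb and the one with the strongest region; members with a list-only region at an end, with at least 4 list-only regions, or with long windows and no region; and the 5 shared regions farthest up and down. Other genes are named for position, promoter or function and were chosen after their values were seen. Alternatives changed the flank, score, list length and overlap rule. No test across replicates was possible.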

Additional observations from a re-analysis of the deposited data

How the results depend on the processing

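No paired analysis was possible because each condition is 1 list built over both replicates. Leaving out a replicate was not possible for the same reason, and ranking by the signal value column was not run, since it holds no values. Without a flank, densities over all members were 0.93 (control) and 1.02 (NMDA) per 100 kb. With a flank of 50 kb there were 237 control and 248 NMDA regions, 216 shared and 19 control-only, and a control density of 1.39. At a score of at least 830 the densities were 0.90 and 1.025, the control density of protocadherins 0.5452, and Cdh13 had 2 control-only and 3 NMDA-only regions. Over all members this score gave 27 NMDA-only regions (20.15% of 134) and 10 control-only regions (8.475% of 118). The limit also removes possible partners from the other list. Shares over the whole lists were not computed at this score, so these values have no like comparison. Control-only regions numbered 20 (13.3%) and NMDA-only regions 32 (19.6%) under a reciprocal overlap of 50%, and again 20 and 32 with summits within 100 bp, where the whole lists gave 15.9% and 21.4%. Extending regions by 500 bp left Cdh13 with 4 NMDA-only regions. Without Cdh13, an alternative chosen after seeing the data, the other cadherins had 2.61 (control) and 2.85 (NMDA) per 100 kb. Fewer regions enter at the stricter score and more at the wider flank; the cause of the remaining changes was not tested. Depth is unknown and limits what weak regions can show, since a region missing from a list may lie just under its threshold.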
